A study of Mus musculus with 4 samples.

Results

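The enzymes that make purines, pyrimidines, deoxynucleotides, folate cofactors and polyamines were followed across 4 cultures of mouse melan-a melanocytes. The genes are 34 enzymes of these pathways, many of them known targets of the transcription factor MYC, and they were listed by name with earlier results of these data known. Of the 34, 31 had a probe set annotated to a single gene symbol, out of 18193 genes on the array so annotated. Impdh2 and Amd1 had no such probe set in the annotation used, and those of Sms are shared with a pseudogene, Sms-ps, so no value is given for these 3. The brightest probe set of each gene, by its mean over the 4 arrays, stands for the gene. Tyms averaged below the median of all probe sets, which left 30 members among the 11188 genes that passed this level filter.

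Melan-a is an immortalised mouse melanocyte line, and each condition was measured once, on an Affymetrix whole-genome mouse array. The cultures were Hmhi-MYC-TA cells with EGF (here MYC-TA EGF), Hmhi-Miz1 kd cells with EGF, which carry pS-Miz1 (Miz1 kd EGF), Hmhi cells with EGF (Hmhi EGF) and Hmhi cells without it (Hmhi starved). All 4 were kept for 14 days in medium with dialyzed serum, for which the TPA and cholera toxin of the growth medium are not listed, and the first 3 received EGF at 100 ng/ml. Neither the name Hmhi nor MYC-TA is explained in the labels, and whether a line is a clone or a pool is not stated there. Values are log2 signals as deposited, with a median of 6.66 in each array, so a step of 1 is a 2-fold difference. With 1 array per condition nothing could be tested: every difference below is between 2 arrays, and culture, RNA sample and hybridization cannot be told apart from the condition. In total RNA of a whole culture, more cells of a kind, such as cells in S phase, and more RNA per cell cannot be told apart either.

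Cells build purine and pyrimidine nucleotides from amino acids, folate-bound carbon units and the activated sugar phosphoribosyl pyrophosphate (PRPP), or recover bases and nucleosides through salvage enzymes. Ribonucleotide reductase and its partners then turn ribonucleotides into the deoxynucleotides (dNTPs) used for DNA, and polyamines are made from ornithine and decarboxylated S-adenosylmethionine. Demand for all of these is high in growing cells, and MYC is known to bind and activate many of the genes, Odc1 and Cad among the classic examples. The series title names Myc, Miz-1 and melanocyte senescence, so the comparisons ask how these growth enzymes stood with MYC-TA, with the Miz1 knockdown construct and with EGF.

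Several facts of the arrays bear on all that follows. Zbtb17, which encodes Miz-1, read 8.71 in MYC-TA EGF, 9.08 in Miz1 kd EGF, 8.72 in Hmhi EGF and 8.73 in Hmhi starved. The labelled knockdown is thus not seen in the brighter of its target's 2 probe sets, the one used here. Directions for that array are those of the array labelled Miz1 kd, whatever it holds. Mycn, a MYC relative, read 13.68, 7.57, 13.53 and 13.32 in the same order, far lowest in Miz1 kd EGF in the brightest of its 3 probe sets. Myc read 9.78, 10.79, 10.60 and 10.64, lowest in MYC-TA EGF. Of 12 melanocyte markers, 8 or 9 were at or above the array median in each array, Sox10 and Tyrp1 at 12.96 or more, while Tyr, Ednrb and Trpm1 were below it in all 4. Of 7 measured keratinocyte markers 3 were at or above it in every array, of 8 fibroblast markers 3 or 4, of 6 leukocyte markers 3 or 4, and of 3 measured Schwann cell markers 2 or 3. Levels of these markers differed between the arrays. In MYC-TA EGF against Hmhi EGF, 8 of 9 melanocyte markers past the filter were lower, where 45.3% of all genes were. Their median was -0.26, with Slc45a2 at -2.70. The 4 fibroblast markers past the filter ran from -3.27 for Pdgfrb to 2.48 for Col3a1, with Dcn at 1.22. In Hmhi EGF against Hmhi starved, all 3 Schwann cell markers were lower, where 49.1% of all genes were. Their differences were -0.70 for Mbp, -2.15 for Pmp22 and -3.26 for Egr2. The labelling controls added as bacterial poly-A RNA differed too: 22 of 24 such probe sets were higher in MYC-TA EGF than in Hmhi EGF, with a median difference of 0.26, and all 24 were higher than in Miz1 kd EGF (median 0.52). The part of the markers and controls in the results was not tested. The comparisons of MYC-TA EGF, Miz1 kd EGF and Hmhi starved with Hmhi EGF share 1 array, so a deviation of that array enters all 3.

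The genes were higher in MYC-TA EGF than in Hmhi EGF, across nearly every branch of the pathways. The median log2 difference of the 30 members was 0.58, against 0.04 for all 11188 genes, and 15 of 30 were at least 1.5-fold higher, where 6.9% of all genes were. As the genes were listed with results known, this contrast with all genes is a description. None was 1.5-fold lower, against 6.98% of all genes. At least 2-fold higher were 3 of 30, Uck2, Dctpp1 and Umps, where 1.07% of all genes were. The difference was positive for 25 of 30 members, and for 54.5% of all genes, and negative for 5 of 30 and for 45.3%. The only error these files hold is technical, the SD of a difference between probe sets of the same gene, which was 0.25 for this comparison. By that measure 23 members were higher by more than 1 SD, 1 was lower by more and 6 were within it. All genes were not counted this way, but their quartiles were -0.20 and 0.26. Of 19 members with several probe sets past the filter, 18 had the same sign in every set. The share of all genes with such agreement was not counted. Using only sets with a plain _at ending, designed for a single gene or transcript, 21 members remained and 9 were at least 1.5-fold higher, where 7.19% of all genes were.

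**Figure D1:**
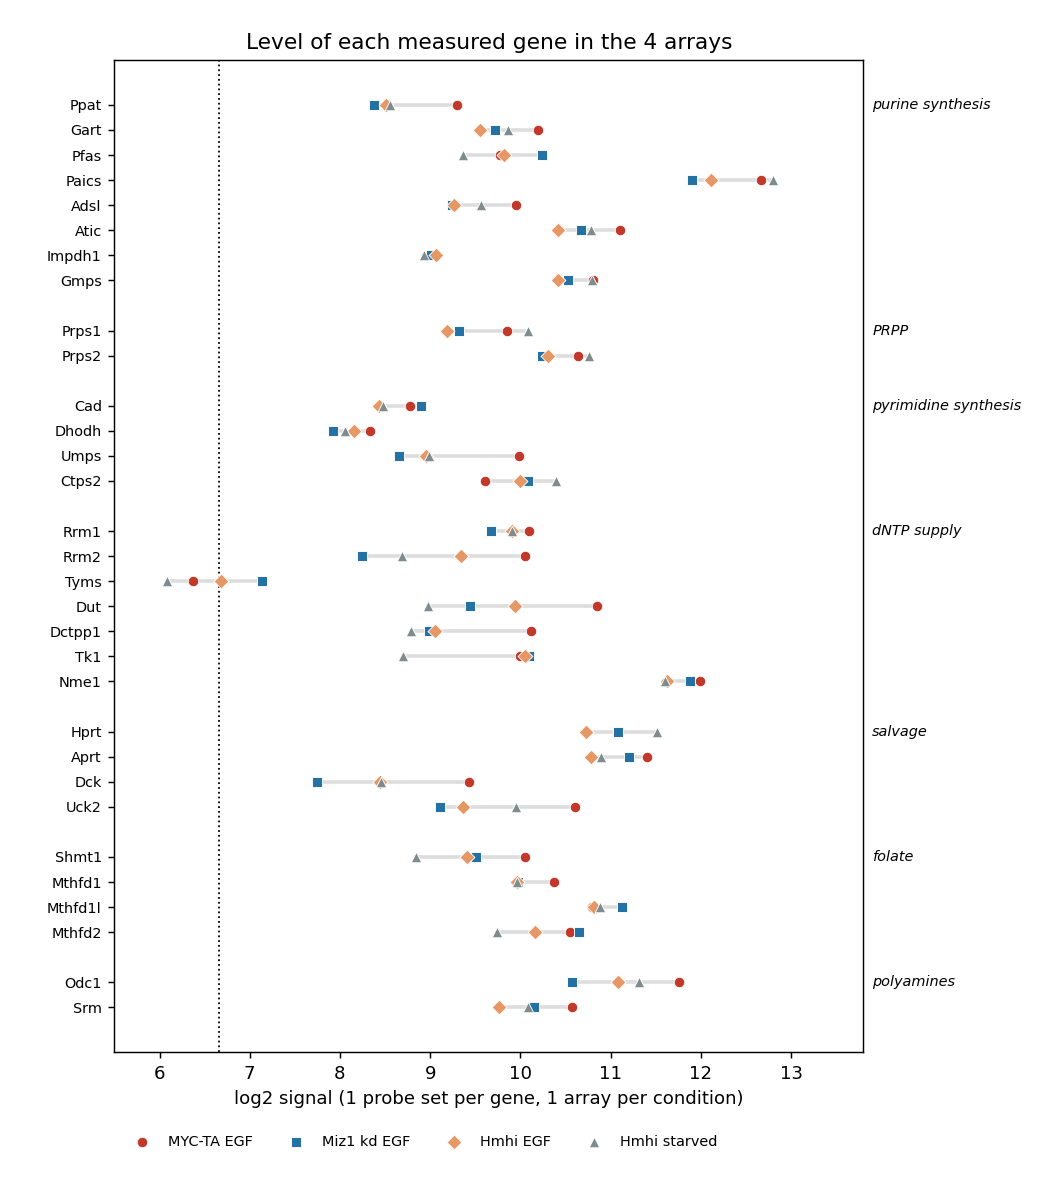
Log2 signal (x axis) of the 31 measured genes in the 4 arrays, 1 point per array and a grey line over their range. The dotted line is the level filter of 6.66, and MYC-TA EGF is the highest point for 19 of the 30 genes past it.

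Across the 4 arrays, 19 of the 30 members were highest in MYC-TA EGF, where 29% of all genes were, and 1 of 30 was highest in Hmhi EGF, where 11.7% were. The lowest level lay in the array labelled Miz1 kd for 11 members, where 28.3% of all genes had it, in Hmhi starved for 9 (34.5%), in Hmhi EGF for 8 (14.7%) and in MYC-TA EGF for 2 (22.6%). The plot of levels shows that MYC-TA EGF stands alone on the right for Ppat, Umps, Dctpp1, Dut and Uck2, while Tk1 and Impdh1 have their EGF arrays close together.

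De novo purine synthesis begins with Ppat, the amidotransferase that commits PRPP to the pathway. It read 9.29 in MYC-TA EGF, 8.38 in Miz1 kd EGF, 8.51 in Hmhi EGF and 8.55 in Hmhi starved. In this probe set only MYC-TA EGF stood apart, 1.73-fold above Hmhi EGF, and the other arrays lay close together. Paics, the bifunctional carboxylase and synthetase further down, is the next protein-coding gene to Ppat on chromosome 5. It read 12.66, 11.90, 12.12 and 12.80 in the same order, so it was high in MYC-TA EGF and in Hmhi starved and lower in the remaining arrays. In the sets used the neighbours thus differed in the starved culture: the difference between Hmhi EGF and Hmhi starved was -0.68 for Paics and -0.05 for Ppat. A dimmer Ppat set, with a mean of 6.49 just under the level filter, gave -0.59, so this contrast rests on the set chosen.

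Gart, the trifunctional enzyme of the early steps, and Atic, which makes inosine monophosphate (IMP), followed an intermediate course. Gart read 10.19 in MYC-TA EGF, 9.72 in Miz1 kd EGF, 9.56 in Hmhi EGF and 9.86 in Hmhi starved. Atic read 11.11, 10.67, 10.42 and 10.78 in that order. In these brightest sets both were highest in MYC-TA EGF and lowest in Hmhi EGF, 1.55-fold and 1.61-fold apart. Adsl, the lyase that acts both before and after IMP, read 9.95, 9.24, 9.26 and 9.57, a 1.62-fold difference between MYC-TA EGF and Hmhi EGF. All 4 probe sets of Gart and both of Atic were higher in MYC-TA EGF, by 0.63 to 0.88 and by 0.69 to 0.82. Between Hmhi EGF and Hmhi starved the sets of Gart ranged from -0.88 to -0.15, with -0.31 for the brightest. The ranks of the other arrays varied with the set. MYC-TA EGF minus Hmhi starved ran from -0.08 to 0.61 over the Gart sets and was -0.003 in the dimmer Atic set. Miz1 kd EGF minus Hmhi EGF ran from -0.37 to 0.26 over the Gart sets.

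Not every purine enzyme took part. Pfas, the amidotransferase that makes formylglycinamidine ribonucleotide, read 9.77 in MYC-TA EGF, 10.24 in Miz1 kd EGF, 9.81 in Hmhi EGF and 9.37 in Hmhi starved. It was highest in the array labelled Miz1 kd, and MYC-TA EGF and Hmhi EGF differed by less than the technical SD. Impdh1, the lesser-known isozyme of the step from IMP to guanine nucleotides, spanned only 8.94 to 9.07. Gmps, which completes GMP, read 10.81, 10.53, 10.42 and 10.80, level in MYC-TA EGF and Hmhi starved. In MYC-TA EGF against Hmhi EGF, 4 of the 8 measured purine genes passed 1.5-fold upward and 0 downward, with a median of 0.59. Of all genes 6.9% and 6.98% did.

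MYC and its partner MAX bind the E-box, CACGTG, which reads the same on both strands. It was searched in the windows from 250 bases before to 50 after each annotated start in RefSeq's mouse promoter table (GRCm38.p6). Of the 34 members 31 had a window, and 6 of them, Paics, Atic, Nme1, Tyms, Impdh2 and Sms, held the hexamer (19.4%), as did 8.09% of 27025 genes in the table. The windows of the 3 members with a match and a higher level in MYC-TA EGF are shown, with the E-box in capitals, because they are the only measured members with both. In Atic (chr1:71556906-71557205, plus strand) it begins 7 bases before the start, in Paics (chr5:76951052-76951351, plus strand) 203 bases, and in Nme1 (chr11:93968223-93968522, minus strand) 18 bases. A second Nme1 start has a window of its own, also with 1 match.
Atic: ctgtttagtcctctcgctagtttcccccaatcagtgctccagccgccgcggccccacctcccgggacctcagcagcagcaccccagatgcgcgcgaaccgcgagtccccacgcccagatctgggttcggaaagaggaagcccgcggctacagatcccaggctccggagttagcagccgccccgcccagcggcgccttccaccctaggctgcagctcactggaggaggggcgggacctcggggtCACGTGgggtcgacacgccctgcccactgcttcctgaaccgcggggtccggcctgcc
Paics: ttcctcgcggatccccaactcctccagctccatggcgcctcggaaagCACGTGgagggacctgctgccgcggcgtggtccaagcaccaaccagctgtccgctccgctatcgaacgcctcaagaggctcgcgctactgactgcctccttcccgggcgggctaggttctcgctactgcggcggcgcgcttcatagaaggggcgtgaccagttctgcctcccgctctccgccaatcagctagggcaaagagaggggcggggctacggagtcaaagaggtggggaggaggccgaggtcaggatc
Nme1: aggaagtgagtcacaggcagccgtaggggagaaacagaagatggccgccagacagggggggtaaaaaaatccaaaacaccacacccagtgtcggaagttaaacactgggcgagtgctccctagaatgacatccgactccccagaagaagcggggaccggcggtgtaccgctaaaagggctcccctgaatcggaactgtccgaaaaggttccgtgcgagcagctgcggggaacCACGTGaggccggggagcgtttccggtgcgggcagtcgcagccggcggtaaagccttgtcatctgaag
These matches describe the letters only. The members with the largest differences, Uck2, Dctpp1 and Umps at 1.24, 1.06 and 1.03, held no CACGTG in these windows, whereas Atic, Paics and Nme1 differed by 0.69, 0.55 and 0.36. Odc1 and Cad, named above as classic MYC targets, held none in these windows either. Sites outside the windows were not searched, so absence here does not speak to MYC binding.

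PRPP itself is made by the synthetases Prps1 and Prps2. Prps1 read 9.86 in MYC-TA EGF, 9.32 in Miz1 kd EGF, 9.19 in Hmhi EGF and 10.09 in Hmhi starved. Prps2 read 10.64, 10.24, 10.30 and 10.76. Both were highest in the starved culture and next highest in MYC-TA EGF, although the other 2 probe sets of Prps2 were highest in MYC-TA EGF, by 0.17 and 0.30 over Hmhi starved. Prps1 had the most negative difference of all members between Hmhi EGF and Hmhi starved, -0.90, and was 1.59-fold higher in MYC-TA EGF than in Hmhi EGF.

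In the pyrimidine branch the final enzyme differed more than the first. Umps, which forms uridine monophosphate, read 9.99 in MYC-TA EGF, 8.65 in Miz1 kd EGF, 8.96 in Hmhi EGF and 8.99 in Hmhi starved. It was 2.05-fold higher in MYC-TA EGF than in Hmhi EGF, and its second probe set past the filter was higher by 0.75. Cad, the large enzyme of the first 3 steps, read 8.78, 8.90, 8.44 and 8.48, and so was 0.34 higher in MYC-TA EGF, and 0.46 higher in Miz1 kd EGF, than in Hmhi EGF. Dhodh, the mitochondrial dehydrogenase between them, spanned 7.92 to 8.33 with its lowest level in the array labelled Miz1 kd.

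The CTP synthases parted. Ctps2 read 9.61 in MYC-TA EGF, 10.09 in Miz1 kd EGF, 9.99 in Hmhi EGF and 10.40 in Hmhi starved, which made it the member with the most negative difference between MYC-TA EGF and Hmhi EGF, -0.38. Its dimmer probe set had the opposite sign, 0.28, so the direction of Ctps2 rests on the set chosen. Ctps1, the other synthase and no member of the set, read 10.47, 9.83, 9.82 and 10.50, with a difference of 0.66.

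The dNTP genes held the members with the widest ranges over the 4 arrays, Dut and Rrm2. Rrm2, the cell-cycle-regulated small subunit of ribonucleotide reductase, read 10.05 in MYC-TA EGF, 8.25 in Miz1 kd EGF, 9.34 in Hmhi EGF and 8.69 in Hmhi starved. Each array stood apart: Rrm2 was higher by 0.71 in MYC-TA EGF than in Hmhi EGF, and Miz1 kd EGF lay below it, with a difference of -1.09. The 3 probe sets of Rrm2 gave 0.62 to 0.79 for MYC-TA EGF minus Hmhi EGF, all positive. Rrm1, the large subunit, which is known to be long-lived as a protein, spanned only 9.67 to 10.09.

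Dut, the dUTPase that keeps uracil out of DNA and supplies dUMP for thymidylate, read 10.85 in MYC-TA EGF, 9.44 in Miz1 kd EGF, 9.94 in Hmhi EGF and 8.98 in Hmhi starved. It had the largest span of any member, 1.87 between MYC-TA EGF and Hmhi starved. Dctpp1, a pyrophosphatase that clears dCTP and its modified forms, read 10.12, 8.99, 9.06 and 8.78, so it was high in MYC-TA EGF alone, 2.09-fold above Hmhi EGF. Tk1, the S-phase thymidine kinase, had another pattern. Its levels of 9.99, 10.09 and 10.05 in the EGF arrays differed by less than the technical SD, and all were above the 8.70 of Hmhi starved.

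Nme1, a nucleoside diphosphate kinase, read 11.99 in MYC-TA EGF, 11.88 in Miz1 kd EGF, 11.63 in Hmhi EGF and 11.60 in Hmhi starved. Its _x_at probe set can also take up similar transcripts. The same holds for the _s_at or _x_at sets used for Ppat, Cad, Rrm2, Aprt, Uck2 and Odc1. Tyms, thymidylate synthase, read 6.37, 7.14, 6.68 and 6.08, near or below the array median, where background limits any difference. Of the 6 dNTP genes past the filter, 5 were highest in MYC-TA EGF and 4 were lowest in Hmhi starved. Of all genes 29% and 34.5% were. Their median difference between MYC-TA EGF and Hmhi EGF was 0.54.

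Salvage enzymes gave the largest median of the branches with more than 2 measured genes, 0.80 between MYC-TA EGF and Hmhi EGF. Uck2, the uridine-cytidine kinase of proliferating cells, read 10.60 in MYC-TA EGF, 9.11 in Miz1 kd EGF, 9.36 in Hmhi EGF and 9.96 in Hmhi starved. It was 2.36-fold higher in MYC-TA EGF than in Hmhi EGF, the largest such fold among the members, although its other probe sets past the filter gave smaller differences, down to 0.68. Dck, the deoxycytidine kinase, read 9.43, 7.75, 8.45 and 8.46: high in MYC-TA EGF, low in the array labelled Miz1 kd, and level in both Hmhi arrays.

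The purine salvage transferases differed less. Aprt, which recovers adenine, read 11.40 in MYC-TA EGF, 11.20 in Miz1 kd EGF, 10.79 in Hmhi EGF and 10.90 in Hmhi starved, and its 2 probe sets gave the same difference of 0.62 between MYC-TA EGF and Hmhi EGF. Hprt, which recovers hypoxanthine and guanine, read 11.07, 11.08, 10.73 and 11.51. It was highest in the starved culture, and MYC-TA EGF and Miz1 kd EGF were about level, above Hmhi EGF by 0.34 and 0.36.

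Folate enzymes differed in which array was highest. Shmt1, the cytosolic serine hydroxymethyltransferase, read 10.05 in MYC-TA EGF, 9.51 in Miz1 kd EGF, 9.40 in Hmhi EGF and 8.85 in Hmhi starved, and all 4 of its probe sets were higher in MYC-TA EGF than in Hmhi EGF, by 0.64 to 0.91. Mthfd1, the trifunctional cytosolic enzyme, read 10.37, 9.97, 9.96 and 9.96, level in all arrays but MYC-TA EGF, which was 0.41 above Hmhi EGF in this set. Its other 2 sets were 0.58 and 0.84 higher in MYC-TA EGF, but not level elsewhere, with -0.26 and -0.55 for Hmhi EGF minus Hmhi starved and -0.30 and -0.91 for Miz1 kd EGF minus Hmhi starved. The mitochondrial enzymes had another order. Mthfd2 read 10.55, 10.65, 10.17 and 9.74, and Mthfd1l 10.79, 11.13, 10.82 and 10.88, both highest in the array labelled Miz1 kd, although the second probe set of Mthfd2 was highest in MYC-TA EGF, at 10.38 against 10.31 in Miz1 kd EGF. In the sets used, that array and MYC-TA EGF differed by less than the technical SD for both, by -0.10 and -0.34 for MYC-TA EGF minus Miz1 kd EGF, where the SD was 0.39.

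Other mitochondrial folate enzymes that are no members, looked at after these values were seen, gave like levels in part. Shmt2, the mitochondrial hydroxymethyltransferase, read 10.91 in MYC-TA EGF, 11.18 in Miz1 kd EGF, 10.43 in Hmhi EGF and 9.89 in Hmhi starved. Aldh1l2, the mitochondrial formyltetrahydrofolate dehydrogenase, read 11.28, 12.32, 11.50 and 11.23. Mthfd2l, a relative of Mthfd2, went otherwise, at 9.75, 9.34, 9.41 and 8.37. Of all genes past the filter, 28.8% were highest in the array labelled Miz1 kd.

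For polyamines only Odc1 and Srm could be measured. Odc1, ornithine decarboxylase, read 11.76 in MYC-TA EGF, 10.57 in Miz1 kd EGF, 11.09 in Hmhi EGF and 11.31 in Hmhi starved. Srm, spermidine synthase, read 10.57, 10.15, 9.76 and 10.09. Both were highest in MYC-TA EGF, 1.60-fold and 1.75-fold above Hmhi EGF, but they differed in the array labelled Miz1 kd, where Odc1 had its lowest level and Srm its second highest. The 3 probe sets of Odc1 gave 0.51 to 0.73 for MYC-TA EGF minus Hmhi EGF.

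**Figure D2:**
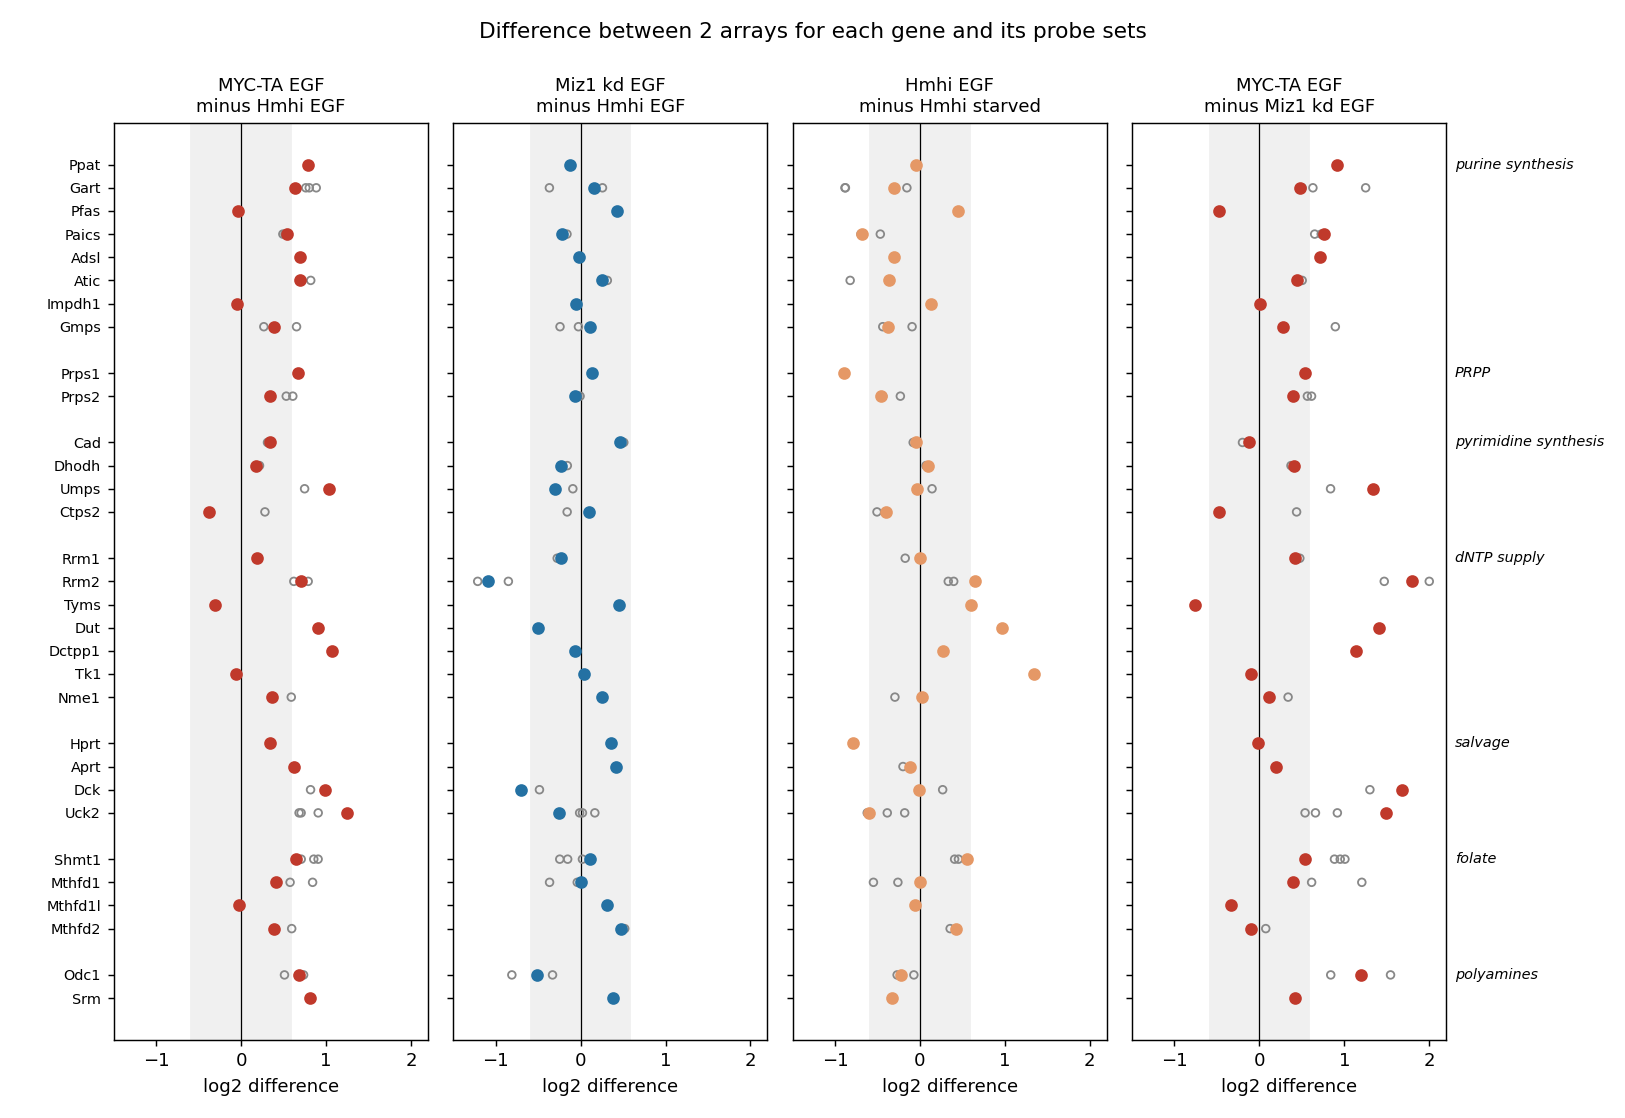
Log2 difference (x axis) between the arrays named above each panel, for each of the 31 measured genes. Filled points are the probe set used, open circles are the gene's other sets past the level filter, and the grey band is less than 1.5-fold. In the left panel 15 of the 30 genes past the filter lie to the right of the band and 0 to its left.

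The array labelled Miz1 kd differed little from Hmhi EGF over the whole set. The median of the 30 members was 0.02, against 0.02 for all genes, with 16 higher and 14 lower, where 52% of all genes were higher and 47.8% lower. At least 1.5-fold lower were 2 of 30, Rrm2 at -1.09 and Dck at -0.70, where 6.77% of all genes were, and 0 were as much higher, where 2.01% of all genes were. Rrm2 alone was 2-fold lower, where 2.32% of all genes were, and its 3 probe sets gave -1.21 to -0.85. Odc1 and Dut came next on the low side, at -0.52 and -0.50. The other Dck set past the filter gave -0.48, short of 1.5-fold, and the sets of Odc1 ran from -0.81 to -0.33. Which members besides Rrm2 passed 1.5-fold thus rests on the set chosen. On the high side Mthfd2, Cad, Pfas and Aprt led, at 0.48, 0.46, 0.43 and 0.42, all short of 1.5-fold. The technical SD was 0.21 here, and 9 members were higher and 9 lower by more than that. The quartiles of all genes, not counted this way, were -0.20 and 0.19. Only 13 of the 19 members with several probe sets had the same sign in all of them, a share not counted for all genes.

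Rrm2 and Dck were the members with the largest differences between MYC-TA EGF and the array labelled Miz1 kd, 1.80 and 1.68, a comparison that does not use the Hmhi EGF array. In it 10 of 30 members were at least 1.5-fold higher, where 16.5% of all genes were, and 7 of 30 at least 2-fold higher, where 6.31% were. These 7 were Rrm2, Dck, Uck2, Dut, Umps, Odc1 and Dctpp1. Other sets past the filter fell short of 2-fold, down to 0.54 for Uck2 and 0.84 for Umps and Odc1. Sets not used of Gart, Mthfd1 and Shmt1 reached 1.25, 1.21 and 1.01. The 2-fold count thus depends on the sets chosen. None of the 30 was 1.5-fold lower, against 12.4% of all genes. The median was 0.42, against 0.03 over all genes. Ctps2, Pfas, Mthfd1l, Cad, Tk1, Mthfd2 and Hprt were the 7 with a negative difference, from -0.02 for Hprt to -0.48 for Ctps2, and the other 23 were positive. Of all genes 47.1% were negative and 52.7% positive. The technical SD was larger here, 0.39, and 19 members were higher and 2 lower by more than it. The quartiles of all genes, not counted this way, were -0.30 and 0.40.

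Hmhi EGF and Hmhi starved differed in no common direction over the set. The median was -0.05, against 0.01 for all genes, and 11 members were higher and 19 lower with EGF, where 50.7% of all genes were higher and 49.1% lower. Tk1, Dut and Rrm2 were at least 1.5-fold higher with EGF, by 1.35, 0.96 and 0.65, which is 3 of 30 members where 16.4% of all genes were. Prps1, Hprt, Paics and Uck2 were at least 1.5-fold lower, at -0.90, -0.78, -0.68 and -0.60, which is 4 of 30 where 12.8% of all genes were. Both shares are near or below those of all genes. Tk1 was the only member 2-fold higher, where 7.74% of all genes were. The technical SD was 0.31. The other 2 probe sets of Rrm2 gave 0.33 and 0.40, short of 1.5-fold, and a Dut set below the level filter gave 0.36. The sets of Uck2 past the filter ran from -0.62 to -0.18. Those of Gart, not counted at -0.31 in the set used, ran from -0.88 to -0.15. Both counts thus depend on the sets chosen.

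The branches differed in that comparison. The median was -0.31 for the 8 purine genes, of which 6 were lower with EGF, and -0.35 for the 4 salvage genes. All 4 were lower in the sets used, Dck barely, at -0.01, and its other set past the filter was higher with EGF, at 0.27. The median was -0.68 for the 2 PRPP synthetases and -0.28 for Odc1 and Srm. By contrast it was 0.46 for the 6 dNTP genes, of which 5 were higher, and 0.21 for the 4 folate genes, of which 3 were. Of all genes 50.7% were higher and 49.1% lower. No difference between branches was tested.

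MYC-TA EGF and Hmhi starved can be set side by side without the Hmhi EGF array, although EGF and MYC-TA then differ together. The median of the members was 0.40, against 0.06 for all genes, and 10 of 30 were at least 1.5-fold higher, where 16.2% of all genes were. At least 2-fold higher were 6 of 30, where 7.95% of all genes were: Dut, Rrm2, Dctpp1, Tk1, Shmt1 and Umps. The dimmer Umps set past the filter gave 0.89, short of 2-fold, and that of Dck, not counted here, gave 1.08. The dNTP genes had a median of 1.31, with Dut, Rrm2, Dctpp1 and Tk1 higher by 1.87, 1.36, 1.34 and 1.29. The purine genes had a median of 0.33, and the PRPP synthetases -0.18. Paics, Prps1, Prps2 and Gmps, all lower in Hmhi EGF than in Hmhi starved, differed less between MYC-TA EGF and Hmhi starved, by -0.14, -0.23, -0.13 and 0.01. Ctps2 alone was at least 1.5-fold lower, at -0.79, where 12.3% of all genes were.

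**Figure D3:**
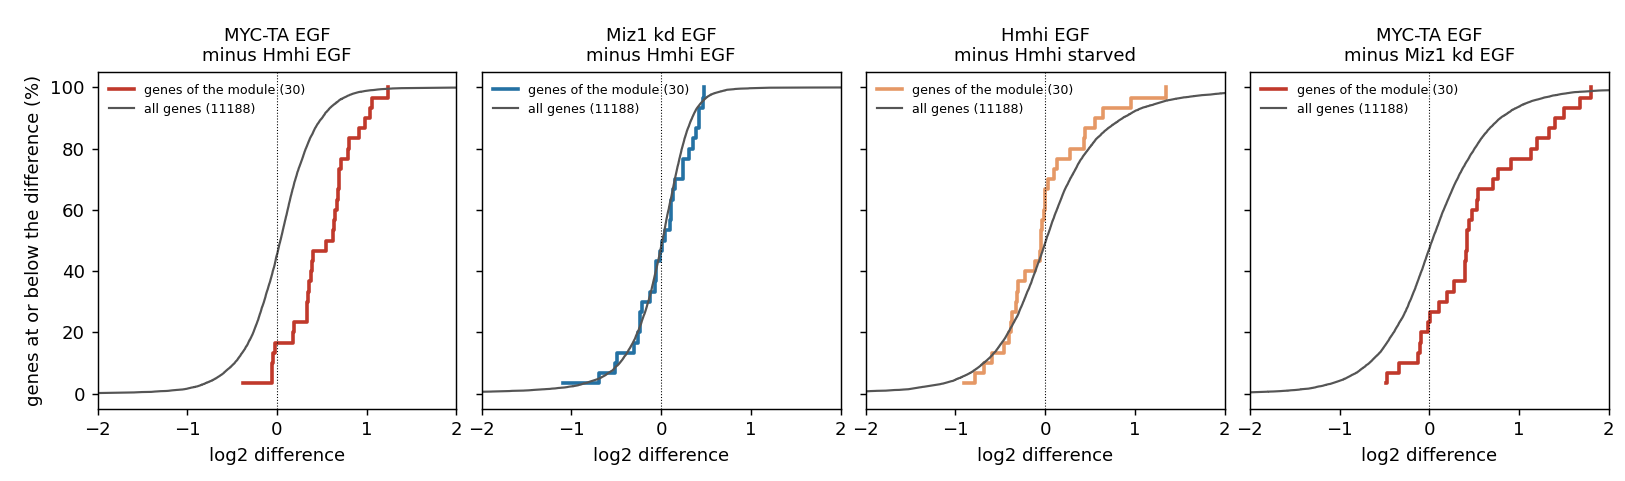
Share of genes (y axis, percent) at or below each log2 difference (x axis) for the 30 members past the level filter, in colour, and all 11188 genes, in grey. The members' curve lies to the right of all genes for both comparisons with MYC-TA EGF (medians of 0.58 and 0.42) and close to it for the array labelled Miz1 kd against Hmhi EGF (median of 0.02).

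S phase and mitosis genes, none of them a member, were higher in MYC-TA EGF along with the members, but differed from the members' median in the other comparisons with Hmhi EGF. In MYC-TA EGF against Hmhi EGF, 14 of 22 S phase genes (median 0.75) and 6 of 15 mitotic genes (median 0.51) passed 1.5-fold upward and 0 downward, where 6.9% and 6.98% of all genes did. Against the array labelled Miz1 kd the medians were 0.85 and 0.89. With EGF against starvation they were 0.54 and 0.96, in a comparison in which the nucleotide genes as a whole had a median of -0.05 but the dNTP genes 0.46. In the array labelled Miz1 kd against Hmhi EGF they were -0.18 and -0.34. The part of cell cycle genes in the results was not tested.

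A wider list of 79 other genes of the same pathways, of which 69 were measured and 60 passed the filter, was counted in the same way. In MYC-TA EGF against Hmhi EGF, 8 of the 60 passed 1.5-fold upward and 2 downward, where 6.9% and 6.98% of all genes did, with a median of 0.22 against 0.04 for all genes. Psat1, a serine synthesis transaminase, read 11.90 in MYC-TA EGF, 10.73 in Miz1 kd EGF, 10.73 in Hmhi EGF and 11.81 in Hmhi starved, so MYC-TA EGF stood at the starved level and the other EGF arrays were lower by about the same amount. Dctd, the dCMP deaminase that feeds thymidylate synthesis, read 9.35, 8.07, 8.31 and 7.82. Adk, adenosine kinase, and Ctps1 were higher in MYC-TA EGF than in Hmhi EGF by 0.71 and 0.66.

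Genes of breakdown and interconversion were mixed. In MYC-TA EGF against Hmhi EGF, 4 genes past the filter, Xdh and the nucleotidases Nt5c2, Nt5c3 and Nt5c3b, had a median of 0.24. Of these 3 were higher, Nt5c3 by only 0.09, less than the technical SD, and 1, Xdh, was lower. Pnp, listed apart, was at -0.46. Of all genes 54.5% were higher and 45.3% lower. Nt5c2, a nucleotidase, Ada, adenosine deaminase, and Cda, cytidine deaminase, were higher by 0.63, 0.64 and 0.59, while Ampd3 and Xdh stood at -1.18 and -0.84. Ampd3, an AMP deaminase, read 8.01 in MYC-TA EGF, 10.31 in Miz1 kd EGF, 9.19 in Hmhi EGF and 7.95 in Hmhi starved, highest in the array labelled Miz1 kd and low in both MYC-TA EGF and the starved culture. Xdh, the xanthine dehydrogenase that ends purine breakdown, read 7.33, 8.61, 8.17 and 10.41, highest in the starved culture and lowest in MYC-TA EGF. In the array labelled Miz1 kd against Hmhi EGF, 4 of the 60 were at least 1.5-fold higher and 5 lower, where 2.01% and 6.77% of all genes were. Aldh1l2, Shmt2 and Psph, a serine synthesis phosphatase, were higher by 0.82, 0.76 and 0.68. Cmpk2, a mitochondrial kinase known to be interferon-inducible, Cda, Nt5c2 and Ggh were at -1.68, -1.15, -1.05 and -0.90.

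With EGF against starvation, 10 of the 60 were at least 1.5-fold higher and 13 lower, where 16.4% and 12.8% of all genes were, so the higher count is near that of all genes. The higher genes were led by the nucleoside catabolic and salvage enzymes Cda, Upp1 and Pnp, by 1.60, 1.34 and 1.30, and by Ampd3, by 1.24. In Hmhi starved, Cda and Upp1 lay under the array median, at 5.73 and 6.38, where background limits the size of a difference. The lower ones were led by Xdh at -2.24 and Nt5e, a cell surface nucleotidase, at -2.20. Samhd1, which degrades dNTPs, read 8.73 in MYC-TA EGF, 8.27 in Miz1 kd EGF, 8.19 in Hmhi EGF and 9.90 in Hmhi starved. Rrm2b, the p53-inducible small subunit of ribonucleotide reductase, read 9.00, 9.34, 9.04 and 10.23. Both were highest in the starved culture, whereas Rrm2 was not.

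**Figure D4:**
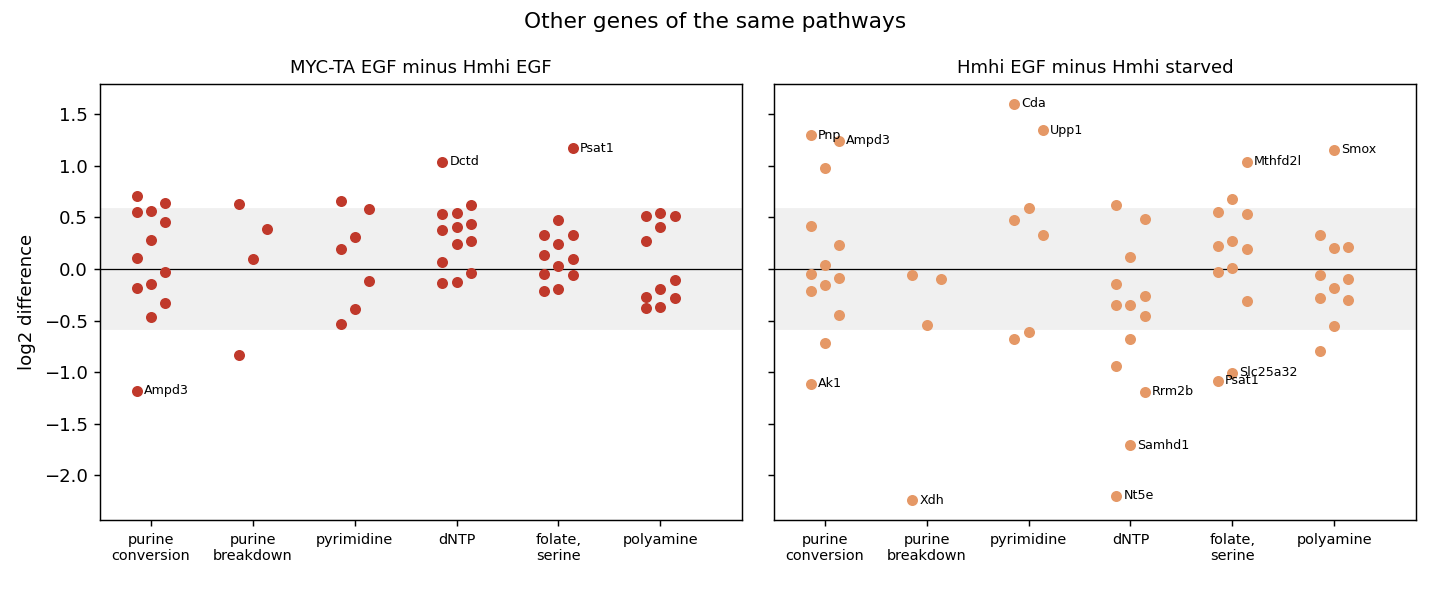
Log2 difference (y axis) of the 60 other pathway genes past the level filter, by branch (x axis), for MYC-TA EGF minus Hmhi EGF (left) and Hmhi EGF minus Hmhi starved (right). Each point is a gene, the grey band is less than 1.5-fold, and the points farthest from 0 are named, Psat1 and Dctd highest on the left and Xdh and Nt5e lowest on the right. The column labelled purine breakdown holds Xdh and the nucleotidases Nt5c2, Nt5c3 and Nt5c3b.

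Between MYC-TA EGF and the array labelled Miz1 kd, 13 of the 60 were at least 1.5-fold higher and 5 lower, where 16.5% and 12.4% of all genes were, with a median of 0.23 against 0.03 for all genes. Cda, Nt5c2, Cmpk2 and Dctd were higher by 1.73, 1.68, 1.29 and 1.27. Ampd3, Xdh, Aldh1l2 and Azin2, an antizyme inhibitor, were at -2.30, -1.27, -1.04 and -0.71. Cda read 6.18 in the array labelled Miz1 kd, below the array median.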

How the data were processed

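Total RNA (100 ng) was labelled with the IVT-Express kit, per the labels' protocols, and hybridized to 1 array per condition. The authors deposited a value table of 45101 probe sets, which run between 2.94 and 15.12 and were therefore taken to be on a log2 scale. The log base, summarization and normalization methods are not given in the sources used here. The sorted values of the 4 arrays agree to 0.004, which means that they were equalised before deposit, and any overall shift between cultures is lost.

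Genes were named through the platform annotation of 2016, which gave 1 symbol for 34945 probe sets and several, left unnamed, for 932. Members and lists were chosen with earlier results of these data known. Every member is named, with up to 4 other pathway genes per comparison and direction, those with the largest differences. A few more were named outside this rule, for their function. They were Mthfd2l, Nt5c3 and Nt5c3b, and Ada, Nt5c2, Cda and Pnp for MYC-TA EGF against Hmhi EGF. The level filter was a mean over the 4 arrays of at least 6.66. Genes at least 1.5-fold or 2-fold apart were counted, and no test was possible. The small number of arrays limits precision. Alternatives covered normalization, filter and probe set choice. The steps were run on simulated data with planted differences larger than any member's between MYC-TA EGF and Hmhi EGF. That run does not show how well differences of the size seen here are called. Python 3.11.15, pandas 2.3.3, numpy 2.4.6, statsmodels 0.14.6 and matplotlib 3.10.9 were used. Promoter sequences are RefSeq's.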

Additional observations from a re-analysis of the deposited data

How the results depend on the processing

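No paired analysis was possible because there is a single array for every condition, and leaving one out would end the comparison. Repeating each count and median with another normalization, level filter or probe set rule left most within 1.5 times or within the technical SD. A shift to a common median and quantile normalization could change almost nothing, because the arrays were equalised before deposit. Their agreement is therefore no check of the results. The median of MYC-TA EGF minus Hmhi EGF ran from 0.52 to 0.61 and its count of higher members from 9 to 15. The low count, 9 of 21, came from only plain _at sets, which also left 1 and 2 in place of 3 and 4 members higher and lower with EGF, 1 member lower in the array labelled Miz1 kd in place of 2, and a median of -0.011 there in place of 0.02. That setting holds fewer genes. The last median was -0.00349 with loess and -0.051 with the mean of all probe sets, so its sign is not settled. The count of 2 lower members was 1 with that mean and with the filter at the 75th percentile. Without a filter, or with the brighter of 2 arrays filtered, Tyms entered and made 1 member lower in MYC-TA EGF than in the array labelled Miz1 kd, in place of 0. A filter without the array labelled Miz1 kd, added after the data were seen, moved no count by more than 1.5 times. Dim signals limit Tyms.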
